A study of Mus musculus with 9 samples.

Results

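The Fat and Dachsous cadherins of the mouse, *Fat1*, *Fat2*, *Fat3*, *Fat4*, *Dchs1* and *Dchs2*, were examined together with *Fjx1*, the kinase that acts on them, in RNA from whole E15.5 kidneys. The genes were chosen by symbol, and 6 of the 7 names were found among the 24138 loci of the expression table. *Dchs2* was not matched and was not analysed here. *Ntn1fl/fl* kidneys (WT) carried the floxed *Ntn1* alleles without Cre, *Foxd1GC/+;Ntn1fl/+* kidneys (HET) carried the *Foxd1* GFP-Cre allele and 1 floxed *Ntn1* allele, and *Foxd1GC/+;Ntn1fl/fl* kidneys (MUT) carried the same Cre allele and floxed *Ntn1* on both chromosomes. Each genotype had 3 kidneys and 3 libraries, numbered within the genotype. All embryos came from 3 separate crosses of *Ntn1fl/fl* with *Foxd1GC/+;Ntn1fl/+* mice. Whether a library number stands for a cross is not given in the sources used here. The Cre is expressed from the *Foxd1* locus, which is active in stromal progenitors, and its insertion takes away 1 *Foxd1* allele in HET and MUT but not in WT. MUT was therefore compared with HET first, as these genotypes differ in *Ntn1* and share the Cre allele.

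Fat and Dachsous proteins are very large atypical cadherins that bind each other across the border between neighbouring cells, with Fat4 and Dchs1 as the best studied pair in mammals. Fjx1 resides in the Golgi and phosphorylates cadherin domains of both partners, which changes how strongly they bind. In the embryonic kidney, Fat4 is known from the stroma and Dchs1 from the nephron progenitors, and loss of stromal *Fat4* leaves too many progenitors undifferentiated. Fat1 is known from the junctions of podocytes and tubules, where it acts on the actin cytoskeleton. Downstream, the family has been linked to planar cell polarity and to the Hippo kinases, which keep Yap1 and Wwtr1 out of the nucleus.

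All values are FPKM, fragments per kilobase of transcript scaled to the library, so levels of different genes are compared per length. Whole kidneys were sequenced, and fewer cells of a type cannot be told apart from less RNA per cell. *Fat1* was the most abundant of the cadherins, with a mean of 18.8 FPKM over the 9 libraries, above 79.5% of all loci. *Dchs1* followed with 14.0 FPKM and *Fat4* with 8.87 FPKM. *Fat3* had 2.42 FPKM and *Fat2* 0.146 FPKM, and both stayed below 5 FPKM, the minimum for the test across genes. *Fjx1* had 15.54 FPKM. The order *Fat1*, *Dchs1*, *Fat4*, *Fat3*, *Fat2* held in 9 of 9 libraries, although the ranges of *Fat1*, *Dchs1* and *Fat4* overlapped between libraries. The place of *Fjx1* was not settled: *Fat1* exceeded it in 7 of 9 libraries and it exceeded *Dchs1* in 6 of 9.

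None of the 4 members that could be tested, *Fat1*, *Fat4*, *Dchs1* and *Fjx1*, differed between genotypes after adjustment. Their MUT means lay above their HET means, by 1.13-fold for *Fjx1* to 1.27-fold for *Dchs1*, and every interval was wide. In limma with Benjamini-Hochberg adjustment, 0 of 10081 genes (0%) passed an adjusted p of 0.05 between MUT and HET, with a smallest adjusted p of 0.738. At an unadjusted p under 0.05, 636 genes (6.31%) passed, 371 of them (3.68%) higher in MUT, and *Dchs1* was 1 of these. The count of 636 depended on single libraries: it was 278 without HET-1, 294 without HET-2, 1126 without HET-3, 350 without MUT-1, 340 without MUT-2 and 1837 without MUT-3.

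**Figure D1:**
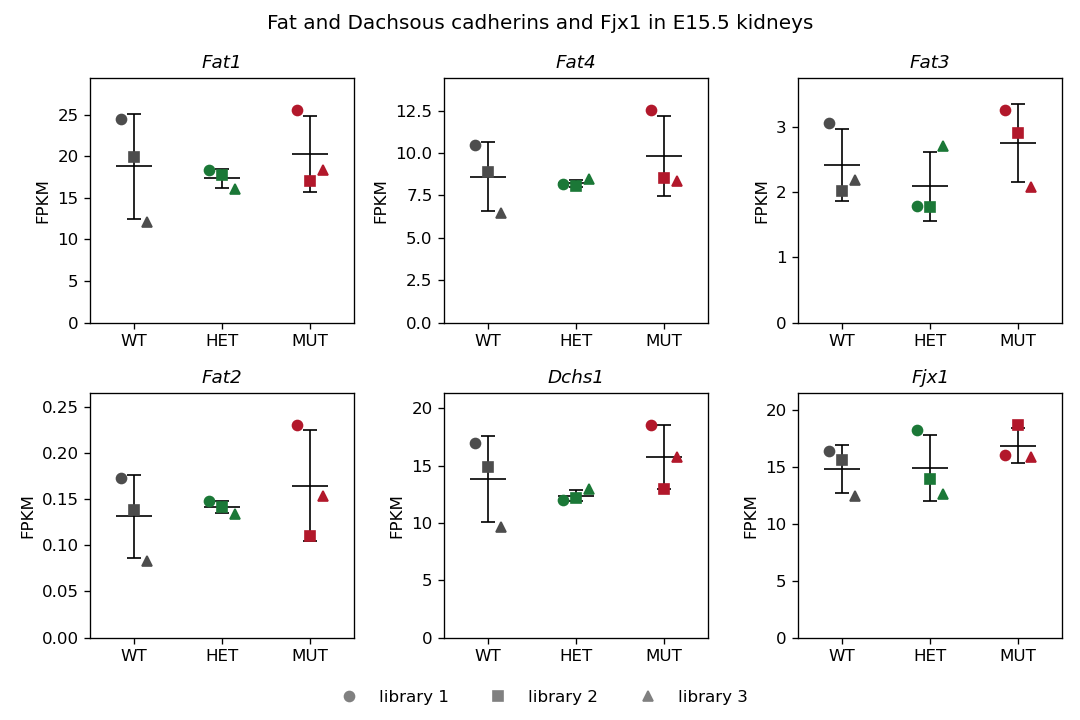
FPKM of the 6 members found (y axis, linear and starting at 0) in WT, HET and MUT kidneys (x axis). Each symbol is a library, its shape the library number, and the horizontal line and bars are mean±s.d. (n=3); the libraries of different genotypes overlap for every member except *Dchs1* between HET and MUT.

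Several libraries stood apart from the rest for reasons visible outside the family. HET-2 held hepatic transcripts: the 6 liver markers summed to 611 FPKM there and to between 26.1 and 50.3 FPKM in the other libraries. The most abundant of them, *Afp*, the fetal serum protein, was at 217 FPKM in HET-2. HET-3 held skeletal muscle transcripts, with the 5 markers summing to 136 FPKM against 5.11 to 11.5 FPKM elsewhere, and *Mylpf*, a fast muscle myosin light chain, at 60.0 FPKM. Both libraries belong to HET, and their part in the genotype values was not tested beyond leaving each out. Without HET-2, MUT exceeded HET on the log2 scale by 0.21 for *Fat1*, 0.20 for *Fat4* and 0.30 for *Dchs1*. Without HET-3 these were 0.14, 0.23 and 0.34.

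The kidney's own markers were present in all libraries. The 7 stromal markers, led by *Tcf21*, a transcription factor of the stroma and podocytes, summed to 363 to 450 FPKM. The 5 nephron progenitor markers, led by *Cited1*, a marker of the cap mesenchyme, summed to 221 to 330.5 FPKM. Podocyte markers, led by *Podxl*, the podocalyxin gene, ranged from 68.2 FPKM in MUT-3 to 145 FPKM in WT-1. The MUT and HET sums overlapped for all 3 lists, while the median log2 fold change of the tested markers between MUT and HET was 0.04 for stroma, 0.04 for nephron progenitors and 0.27 for podocytes.

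Of the remaining lists, smooth muscle markers (led by *Acta2*) summed to 172 FPKM in HET-2 and to 95.3 to 134 FPKM elsewhere, and the 4 of 5 erythroid markers matched (led by *Hba-a1*) to 448 FPKM in HET-2 and 233 to 304 FPKM elsewhere. The tested smooth muscle markers had a median log2 fold change of -0.48 between MUT and HET. The part of these cell types in the members' differences was not tested. Ureteric bud and collecting duct (*Calb1*), nephron epithelium (*Slc34a1*), endothelium (*Emcn*) and macrophage markers (*Csf1r*) overlapped between MUT and HET. The 4 adrenal cortex markers, led by *Cyp11a1*, stayed at or under 1.74 FPKM in sum.

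**Figure D2:**
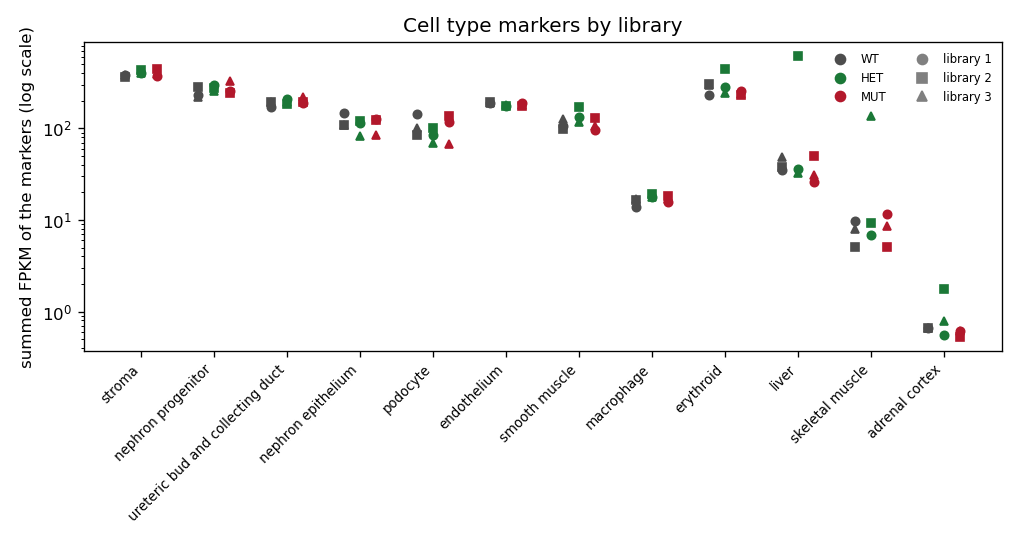
Summed FPKM of each marker list (y axis, log scale) by cell type (x axis), 1 symbol per library with colour for genotype and shape for library number. HET-2 stands out for liver at 611 FPKM and HET-3 for skeletal muscle at 136 FPKM, while stromal sums stay between 363 and 450 FPKM.

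A further difference between libraries ran with transcript length. Against each gene's mean over the 9 libraries, the 512 genes with transcripts of at least 8 kb had a median log2 deviation of 0.25 in MUT-1 and 0.21 in WT-1, and of -0.19 in HET-2 and -0.17 in HET-1. Genes under 2 kb deviated the other way, by -0.21 in MUT-1 and 0.14 in HET-1. The longest annotated transcripts of *Fat1*, *Fat4* and *Dchs1* measure 14814, 16109 and 10754 bases, and these genes deviated in the same direction as their length class in MUT-1, WT-1, HET-1 and HET-2, but not in HET-3, where the class was at 0.09 and *Fat1*, *Fat4* and *Dchs1* were at -0.18, -0.05 and -0.08, or in WT-2, where it was at -0.08 and they were at 0.10, 0.02 and 0.10. In MUT-3 the class was at -0.09 and *Dchs1* at 0.18. Between MUT and HET, genes of at least 8 kb had a median log2 fold change of 0.13 and 80.2% of them lay above 0, compared with 45.9% of all genes tested. Between HET and WT their median was -0.13 and 10.5% of them lay above 0, compared with 52.4% of all genes tested. In WT-3, where *Fat1*, *Fat4* and *Dchs1* were lowest, the class was at 0.03. Values corrected for GC content and transcript length are given beside the differences of the 4 tested members.

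The targeted gene and the Cre locus were checked first. In library order, *Ntn1* was at 26.1, 28.9 and 17.8 FPKM in WT, at 12.3, 12.02 and 16.5 FPKM in HET and at 10.8, 16.5 and 11.04 FPKM in MUT. *Foxd1* was at 31.0±4.46 FPKM in WT, 21.1±0.801 FPKM in HET and 23.9±1.22 FPKM in MUT (mean±s.d., n=3). Both were lower in each Cre carrier than in any WT kidney. *Ntn1* overlapped between HET and MUT, with means of 13.6 and 12.8 FPKM, so the FPKM did not separate these genotypes by the targeted gene.

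*Fat4*, the receptor of the stroma, lies on chromosome 3 from 38886940 to 39011983 (mm10, plus strand) with 17 exons. The WT libraries held 10.5, 8.87 and 6.44 FPKM in the order of their numbers, the HET libraries 8.15, 8.04 and 8.44 FPKM, and the MUT libraries 12.5, 8.52 and 8.37 FPKM. MUT-1 was the highest library and WT-3 the lowest, MUT-3 lay inside the HET range, and the HET libraries varied least. Between MUT and HET its log2 fold change was 0.21 (standard error 0.15, 95% interval -0.11 to 0.53, limma with Benjamini-Hochberg adjustment, adjusted p = 0.756). It was 0.08 after correction for GC content and length and 0.04 without MUT-1. *Fat4* therefore could not be separated between genotypes, and an increase of up to 1.45-fold lies within the interval.

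*Fat1*, which organises actin at cell junctions, lies on chromosome 8 from 44950208 to 45052257 (plus strand, 29 exons). The WT libraries held 24.4, 19.9 and 12.03 FPKM, the HET libraries 18.3, 17.7 and 16.1 FPKM, and the MUT libraries 25.5, 17.0 and 18.3 FPKM. WT-3 held less than any other library and MUT-1 more, so that the WT range enclosed all 3 HET values. Between MUT and HET the log2 fold change was 0.19 (standard error 0.14, limma adjusted p = 0.759), 0.06 after the correction and 0.03 without MUT-1. It was -0.05 between HET and WT, with an interval from -0.50 to 0.40.

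*Fat3*, known from the shaping of neurons, lies on chromosome 9 from 15910193 to 16378231 (minus strand), the longest locus of the family at 468 kb. FPKM values of 3.05, 2.01 and 2.18 were found in WT, of 1.79, 1.77 and 2.70 in HET, and of 3.26, 2.91 and 2.09 in MUT. The ratio of MUT to HET means was 1.32, and an exact two-sided permutation test gave p = 0.2. MUT-3 lay below HET-3, and the groups overlapped. *Fat3* was highest in MUT-1 and WT-1, and highest in HET-3 among the HET libraries, as *Fat4* was.

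*Fat2*, best known from the cerebellum and from migrating epithelia, lies on chromosome 11 from 55250610 to 55312257 (minus strand). It was low but above 0 in all 9 libraries, from 0.0836 FPKM in WT-3 to 0.230 FPKM in MUT-1, and its mean lay above 36.5% of all loci. *Fat4* was on average 62.4 times more abundant per length. The ratio of MUT to HET means was 1.17 with an exact permutation p = 0.7, and the 3 MUT libraries enclosed the HET values. MUT-1 set the direction: the log2 difference of 0.03 was -0.01 without it.

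*Dchs1*, the ligand of Fat4, lies on chromosome 7 from 105752989 to 105787550 (minus strand, 21 exons). The WT libraries held 17.0, 14.9 and 9.68 FPKM, the HET libraries 12.01, 12.2 and 12.96 FPKM, and the MUT libraries 18.5, 12.97 and 15.8 FPKM. All 3 MUT libraries lay above all 3 HET libraries, but MUT-2 and HET-3 were separated only in the second decimal. Among all genes tested, 523 (5.19%) had MUT above HET without overlap, and among those of at least 8 kb 45 of 505 (8.91%) did. The WT libraries enclosed the HET values, and MUT-1 lay above every WT library.

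The log2 fold change of *Dchs1* between MUT and HET was 0.31 (standard error 0.13, 95% interval 0.03 to 0.59, limma unadjusted p = 0.0317, adjusted p = 0.738). An exact two-sided permutation test of the 3 libraries against 3 gave p = 0.1, the smallest it can give, and 0.84 after Benjamini-Hochberg adjustment over 18 such tests of the 6 members in 3 comparisons. After correction for GC content and length the log2 fold change was 0.11 (interval -0.11 to 0.33), and it was 0.20 without MUT-1. With all libraries, *Dchs1* thus gave the largest difference of the 4 tested members as deposited, and it did not pass the adjusted threshold. Without HET-1, *Fjx1* had 0.32 and *Dchs1* 0.29, and without MUT-1 *Fjx1* had 0.21 and *Dchs1* 0.20.

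*Fjx1*, the Golgi kinase, is a gene of 1 exon on chromosome 2 from 102449366 to 102451792 (minus strand), and its annotated transcript of 3134 bases is the shortest of the members. The locus of the expression table is shorter than this transcript, at 2.4 kb. FPKM values of 16.4, 15.6 and 12.4 were found in WT, of 18.2, 13.9 and 12.6 in HET, and of 16.04, 18.7 and 15.9 in MUT. HET-1 was near the top and HET-3 near the bottom of all 9 libraries, so the spread within HET exceeded the difference between genotypes. Between MUT and HET the log2 fold change was 0.18 (standard error 0.14, limma adjusted p = 0.764) and 0.11 after the correction. Without HET-1 it was 0.32, and without HET-3 it was 0.07.

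**Figure D3:**
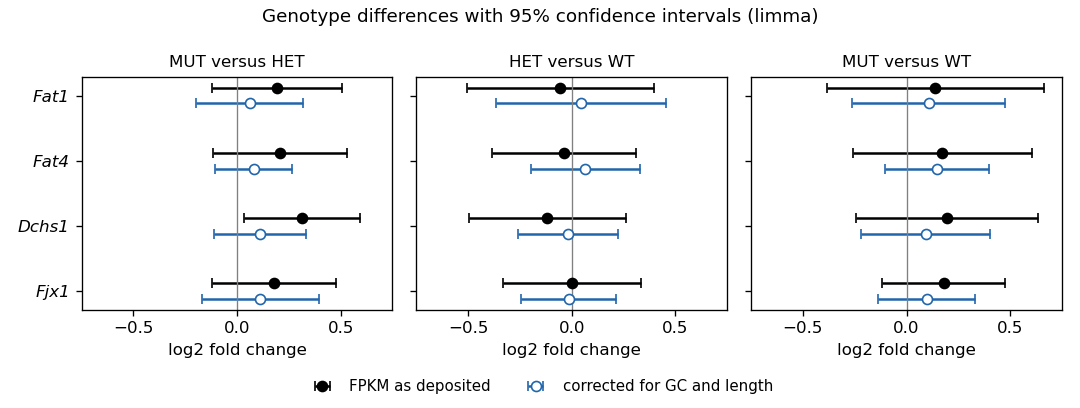
Log2 fold change (x axis) of the 4 tested members (y axis) in the 3 comparisons, with 95% confidence intervals from limma (n=3 libraries per genotype), for FPKM as deposited (filled) and after correction for GC content and transcript length (open). Only the interval of *Dchs1* between MUT and HET leaves out 0, from 0.03 to 0.59, and the corrected interval does not.

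HET was compared with WT to see what the Cre allele and the loss of 1 *Ntn1* allele did together, and these cannot be told apart in this design. The log2 fold changes were -0.05 for *Fat1*, -0.04 for *Fat4*, -0.12 for *Dchs1* and 0.00 for *Fjx1*, with adjusted p from 0.998 to 0.999 in limma with Benjamini-Hochberg adjustment. Marker sums that did not overlap between these genotypes were those of stroma (401 to 437 FPKM in HET, 363 to 387 in WT), endothelium (176 to 179 in HET, 187 to 193 in WT) and macrophages (17.6 to 19.4 in HET, 14.0 to 16.8 in WT). The sums of all other lists overlapped. The median log2 fold change was 0.02 over 6 tested stromal markers, -0.07 over 5 endothelial and 0.24 over 2 macrophage markers. *Foxd1*, itself a stromal marker, was lower in HET than in WT. The part of these cell types in the members' values was not tested. Of 10105 genes tested, 0 (0%) passed the adjusted threshold and 108 (1.07%) an unadjusted p under 0.05, the latter count being 625 without HET-3, 395 without WT-2, 257 without WT-3 and 249 after the correction. After the correction for GC content and length the values were 0.04, 0.07, -0.02 and -0.02. Single libraries turned the direction: without WT-1, the log2 fold change was 0.15 for *Fat1*, 0.10 for *Fat4* and 0.04 for *Dchs1*, and without WT-3 it was -0.33, -0.21 and -0.34. For *Fjx1* it was -0.14 without HET-1, 0.11 without HET-3 and -0.11 without WT-3. Between MUT and WT the log2 fold changes were 0.14 for *Fat1*, 0.17 for *Fat4*, 0.19 for *Dchs1* and 0.18 for *Fjx1*, each with an adjusted p of 1.000 in limma. There 0 of 10096 genes (0%) passed the adjusted threshold and 65 (0.644%) the unadjusted p, a count that ranged from 36 without WT-3 to 377 without WT-1, was at least 126 without any other library, and was 139 after the correction. After the correction the MUT to WT values were 0.11, 0.14, 0.09 and 0.10. Without WT-3 they were -0.13, -0.00, -0.03 and 0.06, as deposited, and without MUT-1 they were -0.03 for *Fat1*, -0.00 for *Fat4* and 0.08 for *Dchs1*. The comparisons share libraries and are not independent of each other.

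The 3 large cadherins followed each other across the 9 libraries, but not within HET. There, in library order, *Fat1* fell from 18.3 to 17.7 and 16.1 FPKM. *Dchs1* rose over the same libraries from 12.01 to 12.2 and 12.96 FPKM, and *Fat4* was at 8.15, 8.04 and 8.44 FPKM. On the log2(FPKM + 1) scale over 9 libraries, Pearson's r was 0.94 between *Fat1* and *Fat4*, 0.92 between *Fat1* and *Dchs1* and 0.92 between *Fat4* and *Dchs1*. Exact permutation p-values were 0.000513, 0.000661 and 0.000245, each 0.00132 after Benjamini-Hochberg adjustment over 6 pairs. Spearman's rho was 0.75, 0.83 and 0.88, with adjusted exact permutation p of 0.0510, 0.0248 and 0.0185. Without MUT-1 and WT-3, the libraries farthest from the median in each pair, r was 0.88, 0.76 and 0.79 (exact permutation p = 0.0369, 0.0313 and 0.0177). *Fjx1* was less close, with r of 0.53 to *Fat1*, 0.41 to *Fat4* and 0.41 to *Dchs1* (adjusted exact permutation p = 0.215, 0.273 and 0.273) and rho of 0.45, 0.47 and 0.38 (adjusted exact permutation p = 0.276, 0.276 and 0.312). Without WT-3 these r were 0.23, 0.11 and 0.08.

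With the genotype means removed, r was 0.94 for *Fat1* and *Fat4*, 0.94 for *Fat1* and *Dchs1* and 0.91 for *Fat4* and *Dchs1*. It was 0.47, 0.28 and 0.26 for *Fjx1* with *Fat1*, *Fat4* and *Dchs1*. After the correction for GC content and transcript length, *Fat1* and *Fat4* kept r of 0.93 (adjusted exact permutation p = 0.0198). In contrast, *Fat1* and *Dchs1* had 0.60 and *Fat4* and *Dchs1* 0.62 (adjusted exact permutation p = 0.123 each). Spearman's rho was then 0.73 for *Fat1* and *Fat4*, 0.67 for *Fat1* and *Dchs1* and 0.78 for *Fat4* and *Dchs1*. The adjusted exact permutation p of these rho were 0.0934, 0.118 and 0.0934. This correction of the correlations was added after the data had been seen. *Dchs1* is the most GC-rich of the cadherins, at 58.5% of its transcript compared with 51.4% in *Fat1* and 50.4% in *Fat4*. Over genes of at least 55% GC the median log2 deviation was -0.16 in WT-3, -0.10 in HET-3, 0.11 in HET-2 and 0.08 in HET-1, where *Dchs1* deviated by -0.47, -0.08, -0.17 and -0.18. The part of GC content in the correlations was not tested by itself.

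**Figure D4:**
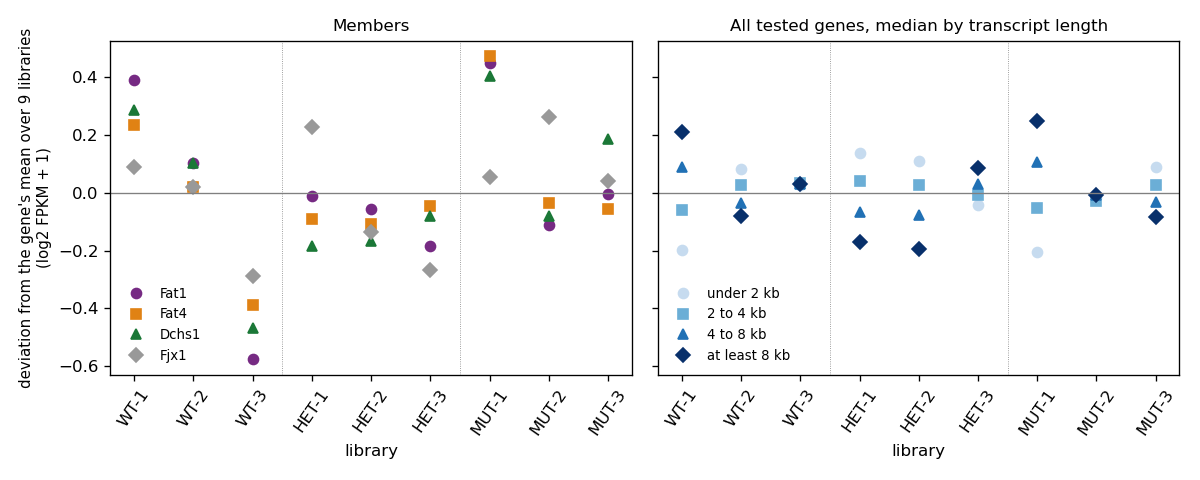
Deviation of each library (x axis) from a gene's mean over 9 libraries on the log2(FPKM + 1) scale (y axis), for the 4 tested members (left) and as the median of all genes in 4 classes of transcript length (right). Genes of at least 8 kb are highest in MUT-1 at 0.25, where *Fat1*, *Fat4* and *Dchs1* are also highest, while *Fat1*, *Fat4* and *Dchs1* are lowest in WT-3, where the length classes lie near 0.

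Many other genes shared these profiles. Among 9966 other genes that reached a mean of 5 FPKM in any genotype, loci with several names left out, 351 had r of at least 0.9 with *Fat1*, 309 with *Fat4*, 212 with *Dchs1* and 8 with *Fjx1*, over 9 libraries. *Fat4* ranked 150th in likeness to *Fat1*, and *Dchs1* ranked 206th in likeness to *Fat4*. The genes closest to *Fat1* were *Cdh4*, *Gse1* and *Wiz* (r of 0.992, 0.992 and 0.988), and those closest to *Fat4* were *Aff3*, *Igf2bp2* and *Crtc1* (0.990, 0.985 and 0.983). Closest to *Dchs1* were *Pom121*, *Sema6a* and *Eif4g1* (0.990, 0.986 and 0.984), and closest to *Fjx1* were *Lzts2*, *Samd1* and *Csnk1g2*, led by r of 0.942. The genes with r of at least 0.9 had a median transcript of 4771 bases for *Fat1*, 5849 for *Fat4*, 5266 for *Dchs1* and 2649 for *Fjx1*, against 3368 bases in the pool. The points are the same 9 libraries for all genes, so these values describe likeness and carry no test.

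Genes around the family were taken as 4 lists, 3 of pathways it has been linked to and 1 of other cadherins. Of the 21 partners and intracellular effectors, which include scaffolds, the Ajuba family of LIM proteins, atrophins and actin regulators, 20 could be tested, and 0 passed the adjusted threshold between MUT and HET. The log2 fold change was above 0 for 19 and below 0 for 1, with a median of 0.16, beside a median of -0.02 over all genes and 45.9% of genes above 0. *Dlg5*, a scaffold of cell junctions, had the highest value at 0.46, at 17.2±3.70 FPKM (mean±s.d., n=3) for MUT against 12.1±0.950 for HET (limma with Benjamini-Hochberg adjustment, adjusted p = 0.738). *Sept9*, a septin of the cytoskeleton, had the lowest at -0.02, at 62.0±7.79 FPKM for MUT against 62.5±3.48 for HET. *Dlg5*, *Lix1l*, *Atn1*, *Rere* and *Evl* had an unadjusted p under 0.05, all higher in MUT, which are 5 of 20 beside 3.68% of all genes. Without MUT-1 and without HET-3, 16 of the 20 partners lay above 0, with medians of 0.15 and 0.18.

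Of the core planar cell polarity genes, 15 of 16 were tested and 14 lay above 0, with a median of 0.19 and 0 calls. *Celsr1*, a cadherin with a receptor domain that bridges neighbouring cells, was highest at 0.54, with 13.3, 9.83 and 8.01 FPKM in MUT against 7.22, 6.61 and 6.30 in HET. Its groups did not overlap, as in 5.19% of all genes and 8.91% of those of at least 8 kb (limma adjusted p = 0.738), and its transcript of 10879 bases is close in length to that of *Dchs1*. *Prickle1*, a cytoplasmic polarity protein, was lowest at -0.01. *Celsr1*, *Celsr2*, *Dvl3*, *Scrib* and *Wnt5a* passed an unadjusted p under 0.05, all higher in MUT, which are 5 of 15 beside 3.68% of all genes. Without MUT-1 the median was 0.10.

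Of the Hippo kinases and nuclear effectors, 18 of 20 were tested and 18 lay above 0, with a median of 0.15 and 0 calls. *Mob1b*, an activator of the Lats kinases, was highest at 0.45, at 12.4±3.20 FPKM for MUT against 8.92±3.31 for HET with overlapping libraries, and *Tead3*, a DNA-binding partner of Yap1, was lowest at 0.03. *Wwc1*, *Sav1*, *Lats2* and *Tead1* passed an unadjusted p under 0.05, all higher in MUT, which are 4 of 18 beside 3.68% of all genes. The median was 0.23 without HET-3 and 0.26 without MUT-3, but 0.11 without MUT-1, where 15 of 18 lay above 0. Without HET-2, 16 of 18 did, with a median of 0.13. Of the 9 other cadherins of the kidney, 8 were tested and 7 lay above 0, with a median of 0.18 and 0 calls. *Cdh6*, a cadherin of early nephron epithelium, was highest at 0.57, but its FPKM was 18.4, 16.7 and 7.32 in MUT, beside 6.46, 8.06 and 11.8 in HET. *Cdh3*, P-cadherin, was lowest at -0.01. Without MUT-1 the median of the cadherins was 0.06.

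After the correction for GC content and length, 17 of the 20 partners, 13 of the 15 polarity genes, 16 of the 18 Hippo genes and 7 of the 8 cadherins lay above 0 between MUT and HET, with medians of 0.13, 0.10, 0.10 and 0.13, beside 49.3% of all genes under the same correction. Between HET and WT the same lists leaned the other way, with 3 of 20, 3 of 15, 3 of 18 and 2 of 8 genes above 0, beside 52.4% of all genes, and 0 calls. Among genes of 4 to 8 kb 28.6% lay above 0 there, and among those of at least 8 kb 10.5%. The HET libraries entered both comparisons. After the correction the list counts were 4, 5, 2 and 4, beside 51.7% of all genes. As deposited, with 1 library left out, these counts ranged from 0 (without WT-3) to 11 (without WT-1) for the partners, from 1 (without HET-2 or WT-3) to 7 (without WT-1) for the polarity genes, from 1 (without HET-1 or WT-3) to 5 (without WT-1) for the Hippo genes, and from 1 (without WT-3) to 4 (without HET-3) for the cadherins. Between MUT and WT, 19 of 20, 13 of 15, 14 of 18 and 7 of 8 lay above 0, beside 48.7% of all genes, again with 0 calls. After the correction these counts were 15, 13, 15 and 7, beside 50.9% of all genes. As deposited, without WT-3 the counts were 10, 4, 11 and 4, without MUT-1 they were 13, 7, 10 and 5, and without WT-2 the Hippo count was 8. The median length of these genes was not matched to that of all genes, and the part of length in the uncorrected counts was not tested gene by gene.

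**Figure D5:**
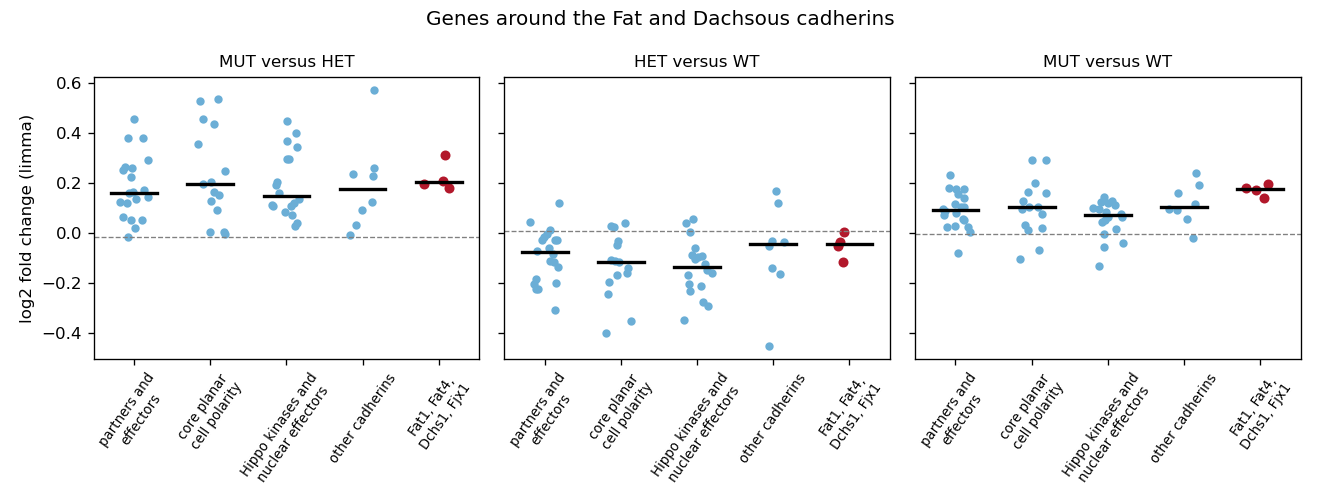
Log2 fold change from limma (y axis) of every tested gene in the 4 lists and of the 4 tested members (x axis), in 3 comparisons. Thick lines are medians and the dashed line is the median of all genes; between MUT and HET the list medians are 0.15 to 0.19 and that of all genes is -0.02, with 0 genes passing the adjusted threshold.

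Other annotated genes overlap some members, and whether the FPKM were computed with strand is not given in the sources used here. On the opposite strand, *Fat1* overlaps *Gm2366*, *Fat4* overlaps *C230034O21Rik* and *Gm43539*, and *Dchs1* overlaps *Gm15645*. *Fat3* overlaps *Gm48726* on its own strand. Reads from these genes could be split with the members'.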

How the data were processed

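Whole E15.5 kidneys (3 libraries of each genotype) were sequenced from stranded poly(A) libraries. The authors mapped reads to mm10 using STAR, built transcripts using Cufflinks and calculated FPKM using Cuffdiff; the deposited FPKM were used unchanged. Read numbers are unknown, and no counting error is given. The spacing of low FPKM gave a rough depth between 0.575 (WT-2) and 1.26 (MUT-1) relative to WT-1.

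Genes that reached a mean of 5 FPKM in either genotype entered limma 3.58.1 (R 4.3.3) as log2(FPKM + 1) (trend, libraries of 2 genotypes, no block, two-sided, Benjamini-Hochberg adjustment, threshold 0.05). Fold changes on this scale understate those of low genes. *Fat2* and *Fat3* fell below the minimum and were compared with exact permutation tests. The p-values of the genotype comparisons set each difference against the spread between these libraries. That spread holds kidneys of 3 crosses whose assignment is not given. Lengths and GC content came from GENCODE mouse release M21 on GRCm38 for 98.6% of loci, and the correction fitted splines of 5 degrees of freedom to each library. Starts in the table count from 0 and were raised by 1. *Sept9*, held as a date in the table, was matched by position. Python 3.11.15, numpy 2.4.6, pandas 2.3.3, scipy 1.17.1 and matplotlib 3.10.9 were used for the rest.

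The members and lists were chosen with earlier results of these data known. The genes named are the members, *Ntn1* and *Foxd1*, the 3 genes most like each tested member, the highest and lowest gene of each list between MUT and HET, and the most abundant gene of each marker list. Genes of the lists with an unadjusted p under 0.05 were named after their values were seen. The limma step was tested on simulated data.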

Additional observations from a re-analysis of the deposited data

How the results depend on the processing

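Alternatives were pseudocounts of 0.1 and 3, FPKM minimums of 1 and none, quantile and median-ratio rescaling, a fit of all 9 libraries, no trend, the GC and length correction, the replicate number as a block, and each library left out. The 4 tested members kept a positive log2 fold change between MUT and HET in every alternative able to change it (0.03 to 0.31 for *Fat1*, 0.04 to 0.30 for *Fat4*, 0.11 to 0.44 for *Dchs1*, 0.07 to 0.32 for *Fjx1*). The FPKM minimums, the trend, the fit of all libraries and the block leave a fold change as it is by construction and bear on p alone. Over all alternatives the smallest adjusted p of the members over all comparisons was 0.310 (limma). Genes called ranged from 0 to 3 in each comparison with a library left out (3 without MUT-3 for MUT and HET, without WT-2 for HET and WT, and without WT-1 for MUT and WT) and were 0 otherwise.

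Between HET and WT the GC and length correction turned *Fat1* to 0.045, *Fat4* to 0.065 and *Fjx1* to -0.015. With libraries left out, HET to WT ranged from -0.33 to 0.15 for *Fat1*, -0.21 to 0.10 for *Fat4*, -0.34 to 0.039 for *Dchs1* and -0.14 to 0.11 for *Fjx1*. MUT to WT ranged from -0.13 to 0.35 for *Fat1*, -0.00073 to 0.31 for *Fat4*, -0.026 to 0.35 for *Dchs1* and 0.065 to 0.25 for *Fjx1*. The causes were not tested. The same correction left the correlations of *Dchs1* at 0.60 with *Fat1* and 0.62 with *Fat4*. With a pseudocount of 0.1 the difference of *Fat2* between MUT and HET was 0.11, beside 0.03 with 1. The correction was not run for *Fat2* and *Fat3*.

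Deviations of libraries 1, 2 and 3 correlated with their namesakes at -0.32, 0.06 and -0.14 between MUT and HET, at -0.19, -0.05 and 0.17 between HET and WT, and at 0.56, -0.26 and -0.04 between MUT and WT. Not every pair exceeded 0.1 in any comparison, and the numbers were not taken to pair kidneys. With the replicate number as a block, 0 genes were called in each comparison, the adjusted p of *Dchs1* between MUT and HET was 0.933 (limma), and genes at an unadjusted p under 0.05 went from 636 to 494 for MUT and HET, from 108 to 233 for HET and WT, and from 65 to 201 for MUT and WT. With a library left out these counts ranged more widely, from 278 to 1837, from 99 to 625 and from 36 to 377, and all 9 libraries in a single fit gave 400, 84 and 87. The lists were also run under every alternative, a choice made after the data were seen. How far depth limits the low members, such as *Fat2* below 1 FPKM, was not tested.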
